A study of Mus with 6 samples.

Results

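The 8 mature miRNAs described here, mmu-miR-188-5p, mmu-miR-362-5p, mmu-miR-362-3p, mmu-miR-500-3p, mmu-miR-501-5p, mmu-miR-501-3p, mmu-miR-532-5p and mmu-miR-532-3p, come from 5 neighbouring precursors on mouse chromosome X. They were taken by name, written below without the species prefix in places, as 8 of the 929 known miRNA names that all 6 libraries list. Small RNA had been sequenced from mouse adipocytes of the C57BL/6 strain with a wild-type (WT) genotype, which both groups share. The control group has 3 libraries, and the other group has 3 libraries from adipocytes under chronic intermittent hypoxia (CIH), in which oxygen falls and recovers again and again as in sleep apnoea. The labels used here give no age, hypoxia regime, fat depot or source animal, and do not say whether the cells were isolated or cultured, and the spread behind the p-values may therefore be technical.

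A miRNA precursor is a hairpin that is cut into a short duplex, and either strand of that duplex, the 5p or the 3p arm, can be loaded into an Argonaute protein to repress matching mRNAs. Precursors that lie close together in a host gene are often made from a shared transcript, while the level of each mature arm also depends on processing and stability. Clcn5, the host here, encodes an endosomal chloride/proton exchanger known for its role in kidney tubule cells. Of the members, miR-188-5p is reported to shift bone marrow stromal cells from the osteoblast towards the adipocyte fate.

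All 5 precursors lie inside the span of Clcn5 on chromosome X (7153810 to 7319358, GRCm38.p6) in the RefSeq table. In order of position they are Mir500 (7237683 to 7237774), Mir501 (7241243 to 7241351), Mir362 (7241982 to 7242046), Mir188 (7247989 to 7248056) and Mir532 (7248402 to 7248497). Together they cover 10815 bp. Mir501 and Mir362 are 630 bp apart and Mir188 and Mir532 are 345 bp apart, whereas 5942 bp separate these pairs and 3468 bp separate Mir500 from Mir501. The table gives no exons, so the position within an exon or intron was not read from it.

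**Figure D1:**
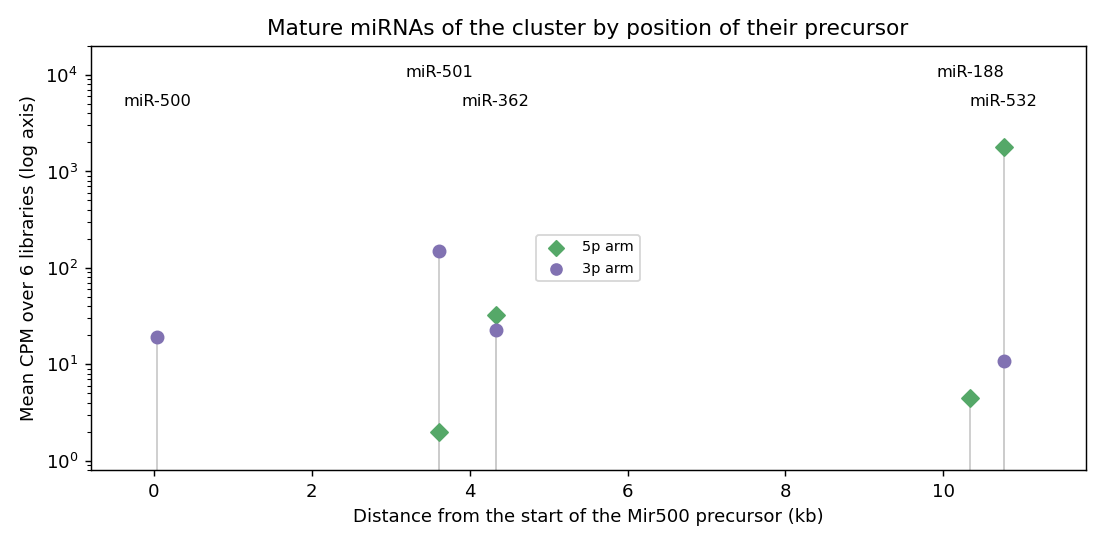
Mean level of each mature miRNA in CPM (reads per 1000000 reads of the library, log axis) over the 6 libraries, against the distance of its precursor from the start of Mir500 in kb; diamonds are 5p arms and circles 3p arms. miR-532-5p stands at 1812 CPM and miR-501-3p at 149 CPM, while the other 6 lie between 1.99 and 32.4 CPM.

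Total counts ran from 6291101 to 11264151 per library, and levels are given in CPM, reads per 1000000 reads of the library. At these depths 3 counts, taken as the floor, correspond to 0.266 to 0.477 CPM, a limit that covers counting error only. The 2 libraries numbered 3 stood apart from the other 4: they list other names, and their log CPM correlated less with the rest (r of 0.909 to 0.926 over 456 miRNAs, which are no replicates) than the 4 numbered 1 and 2 did among themselves (0.974 to 0.990). The r between these 2 libraries was 0.914, within the range they reached with the other 4. The scaling factors of the trimmed mean of M-values (TMM) method were 0.636 for control library 3 and 0.937 to 1.20 for the others. Each comparison is therefore given for all 6 libraries, for the 4 libraries numbered 1 and 2, and as the difference in the pair numbered 3. The marker list holds no miRNA that only adipocytes express, so it cannot check the label. Its 8 adipocyte-enriched miRNAs summed to 220290, 235524 and 147299 CPM in control libraries 1, 2 and 3. In CIH libraries 1, 2 and 3 they summed to 180164, 159264 and 87979.7 CPM. This sum was thus lower in both libraries numbered 3 than in the other 4. The 4 leukocyte miRNAs summed to at most 4.29 CPM.

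mmu-miR-532-5p, the most abundant product of the cluster, differed little between the groups in CPM. Its levels, in number order, were 1648, 1609 and 1966 CPM in the controls and 1812, 1670 and 2165 CPM under CIH. The groups overlap, and within each group the library numbered 3 is the highest. It ranks 38 among the 929 names by mean CPM. The fit over 6 libraries gave a log2 difference of -0.16 (SE 0.47, adjusted p = 0.988, edgeR quasi-likelihood test, Benjamini-Hochberg over 456 miRNAs), and the libraries numbered 1 and 2 gave 0.24 (SE 0.21, adjusted p = 0.552). The sign over 6 libraries depends on the scaling of control library 3: with total counts alone the difference was 0.11, and without that library 0.34.

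The 3p arm of the same hairpin, mmu-miR-532-3p, showed larger differences in the pair numbered 3. Controls 1 to 3 gave 9.06, 8.33 and 2.66 CPM and their CIH counterparts 9.27, 10.46 and 24.7 CPM. The ranges do not overlap, but control library 1 and CIH library 1 lie close together and the lowest and highest values are both from libraries numbered 3. The log2 difference over 6 libraries was 1.10 (SE 0.56, adjusted p = 0.885) and that within the libraries numbered 1 and 2 was 0.34 (SE 0.37, adjusted p = 0.640), both by edgeR. Without CIH library 3 the fit over the other libraries gave 0.58, and without control library 3 it gave 0.90. The value of the libraries numbered 1 and 2 was 0.12 without CIH library 2 and 0.55 without CIH library 1.

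mmu-miR-362-3p had all 3 CIH levels above all 3 control levels. The 3 controls, in the order of their numbers, held 22.6, 16.7 and 6.30 CPM, against 24.4, 40.5 and 26.3 CPM in the 3 CIH libraries. The gap is narrow, from 22.6 to 24.4 CPM, and the spread within each group is wider than it. The log2 difference was 1.01 (SE 0.50, adjusted p = 0.885) over 6 libraries and 0.93 (SE 0.35, adjusted p = 0.0963) within the libraries numbered 1 and 2 by edgeR. This is the smallest adjusted p of a member in these 2 comparisons. In the libraries numbered 1 and 2 the larger part of the difference came from CIH library 2: without CIH library 1 the log2 difference was 1.34 (adjusted p = 0.0168), and without CIH library 2 it was 0.36.

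mmu-miR-362-5p, from the other arm of that hairpin, is reported to target the deubiquitinase CYLD, a brake on NF-kB signalling. Its levels, in number order, were 24.3, 30.1 and 15.01 CPM in the controls and 27.1, 35.7 and 62.2 CPM under CIH. Control library 2 lies above CIH library 1, so the groups overlap, and the lowest and highest values again come from the libraries numbered 3. Its log2 difference was 0.73 (SE 0.47, adjusted p = 0.899) over 6 libraries and 0.37 (SE 0.33, adjusted p = 0.564) within the libraries numbered 1 and 2 by edgeR. Over the 6 libraries it ran from 0.37 (without CIH library 3) to 1.06 (without CIH library 1) with each library left out. The value of the libraries numbered 1 and 2 ran from 0.0078 (without CIH library 2) to 0.67 (without control library 2).

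mmu-miR-188-5p, the member tied to the adipocyte fate, was low in every library, with each CIH level above each control level. Its control levels, in number order, were 3.81, 3.09 and 2.06 CPM, from 24, 30 and 17 reads. Under CIH they were 4.50, 7.07 and 6.39 CPM, from 33, 71 and 72 reads. The groups do not overlap, with a ratio of means of 2.005, but the exact Poisson 95% interval of control library 1 (2.44 to 5.68 CPM) includes the value of CIH library 1. The log2 difference was 0.90 (SE 0.49, adjusted p = 0.885) over 6 libraries and 0.94 (SE 0.42, adjusted p = 0.173) within the libraries numbered 1 and 2 by edgeR. Over the settings tried for the 6 libraries it stayed between 0.66 and 1.18, whereas within the libraries numbered 1 and 2 it was 0.42 without CIH library 2 and 1.33 without CIH library 1.

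mmu-miR-501-3p, the next most abundant member and in neurons a reported regulator of the glutamate receptor subunit GluA1, did not separate the groups. Controls 1 to 3 gave 180, 196 and 45.4 CPM and their CIH counterparts 198, 160 and 116 CPM. The 4 libraries numbered 1 and 2 lie close together, and in both groups the library numbered 3 is the lowest. The log2 difference was 0.17 (SE 0.50, adjusted p = 0.988) over 6 libraries, -0.12 without control library 3, and 0.06 (SE 0.23, adjusted p = 0.903) in the libraries numbered 1 and 2 by edgeR. With total counts alone the last value was -0.07.

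mmu-miR-501-5p, the minor arm, was the rarest member, with 7 to 39 reads per library. The 3 controls, in the order of their numbers, held 2.07, 2.06 and 0.847 CPM, against 1.64, 3.88 and 1.42 CPM in the 3 CIH libraries. The groups overlap, and CIH library 2 alone is above the rest. The log2 difference was 0.46 (SE 0.63, adjusted p = 0.970) over 6 libraries by edgeR, and without CIH library 2 it was -0.28. Within the libraries numbered 1 and 2 edgeR gave 0.63 (SE 0.55, adjusted p = 0.562).

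mmu-miR-500-3p had CIH differences of opposite sign in the 2 sets of libraries. Its levels, in number order, were 25.4, 26.1 and 3.75 CPM in the controls and 15.1, 21.7 and 22.2 CPM under CIH. By CPM, in numbers 1 and 2 both control libraries are above both CIH libraries, while in number 3 the control library is the lowest of all 6. The log2 difference was -0.31 (SE 0.33, adjusted p = 0.641) in the libraries numbered 1 and 2 and 0.14 (SE 0.60, adjusted p = 0.988) over all 6 by edgeR. Without control library 3 the latter was -0.24.

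**Figure D2:**
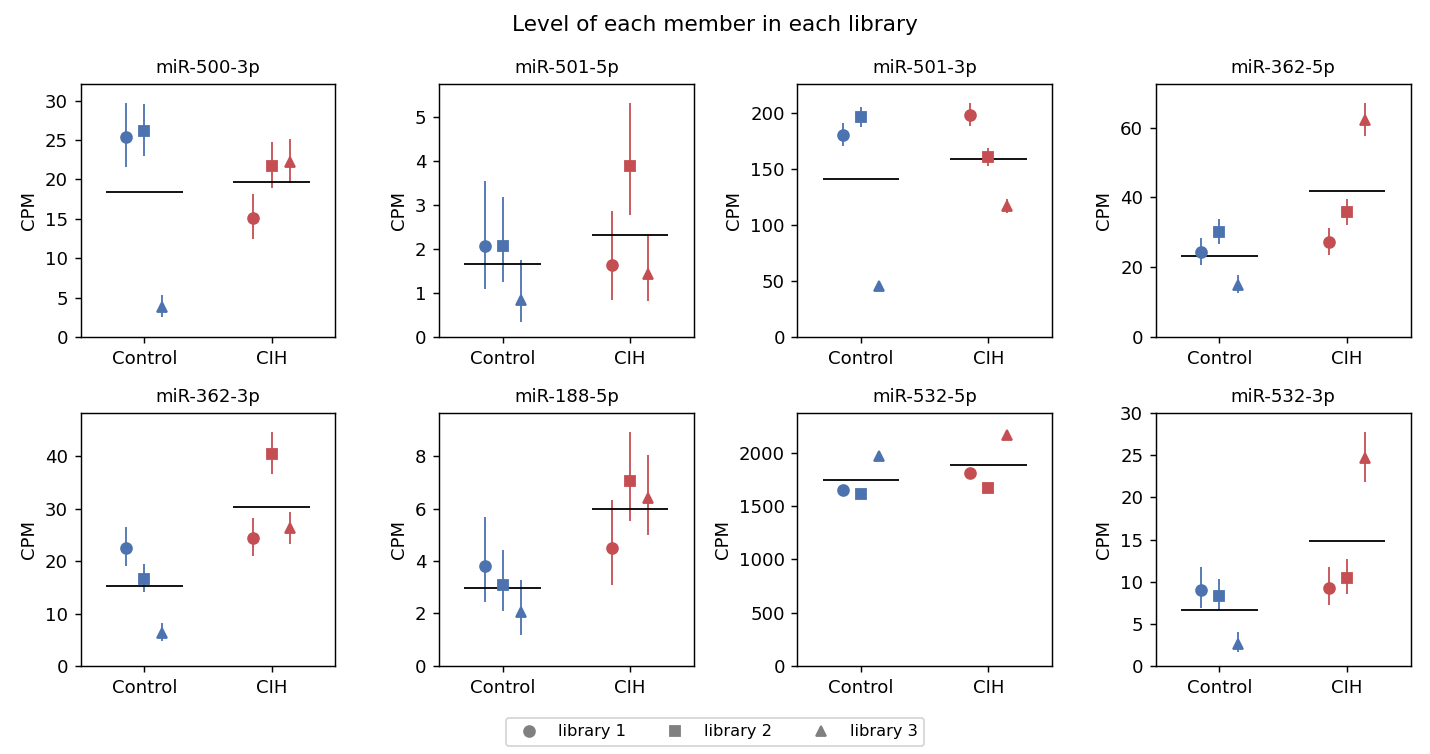
Level of each member in CPM in the 3 control (blue) and 3 CIH (red) libraries; circles, squares and triangles are libraries 1, 2 and 3, bars are exact Poisson 95% intervals that cover counting error only, and lines are group means. Control library 3 is the lowest library for 7 of the 8 members, the exception being miR-532-5p.

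None of the 8 members was called in the fit over 6 libraries, where the share of all tested miRNAs called was 0.0% (edgeR, 0 of 456). At an unadjusted p under 0.05 edgeR held 23 miRNAs (5.04%), of which 0 are members, DESeq2 37 and limma-voom 21, and these 2 tools made 0 calls as well. Within the libraries numbered 1 and 2, edgeR called 9.37% of 459 miRNAs and 0 members, with miR-188-5p and miR-362-3p at an unadjusted p of 0.0313 and 0.0132, where 21.6% of all tested miRNAs were under 0.05. DESeq2 and limma-voom called 35 miRNAs each there. All 8 members passed the filter on low counts in both fits. Their median log2 difference was 0.59 over 6 libraries, beside 0.04 for all tested miRNAs, and 0.36 within the libraries numbered 1 and 2, beside -0.03. With total counts alone the medians of all tested miRNAs moved to 0.15 and -0.17 and those of the members to 0.67 and 0.20, so on that scaling the members stood above the rest by 0.51 and 0.37.

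The 3 members whose ranges did not overlap, miR-188-5p, miR-362-3p and miR-532-3p, were all higher in CIH. For each the Poisson 95% interval of control library 1, the highest control by CPM, includes the value of CIH library 1, the lowest CIH library. For miR-362-3p this interval was 19.0 to 26.6 CPM against 24.4 CPM, and for miR-532-3p 6.86 to 11.7 CPM against 9.27 CPM. The separation by CPM is thus within counting error. Among all 456 tested miRNAs, 7.46% had CIH ranges above control by CPM, and 8.11% after TMM scaling, with the same 3 members on both scales. Control library 3 was the lowest of the 6 libraries for 7 of 8 members, and for 55.5% of all tested miRNAs. After TMM scaling it was the lowest for 4 of 8 members and for 32.0% of all tested miRNAs. The low level of that library is thus shared by many miRNAs outside the cluster.

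Within each library number the members were mostly higher in CIH. By CPM, 6 of 8 were higher in CIH in number 1, 6 of 8 in number 2 and 8 of 8 in number 3, where the shares of all tested miRNAs were 45.2%, 36.4% and 73.5%. After TMM scaling the counts were 6, 6 and 6 of 8, beside 48.5%, 53.5% and 52.4%. miR-188-5p, miR-362-3p, miR-362-5p and miR-532-3p were higher in CIH in all 3 numbers on both scales. The labels do not pair libraries of equal number. For miR-188-5p, miR-362-3p and miR-532-3p, whose ranges did not overlap, any match gives this sign. For miR-362-5p the sign depends on the match. Its level in control library 2 (30.1 CPM) was above that in CIH library 1 (27.1 CPM), also after TMM scaling (27.4 against 23.6 CPM). The sizes differed: by TMM scaling with 0.5 CPM added, the log2 difference of miR-532-3p was 0.09 in number 1, 0.53 in number 2 and 2.28 in number 3, and that of miR-362-3p was 0.17, 1.49 and 1.22.

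**Figure D3:**
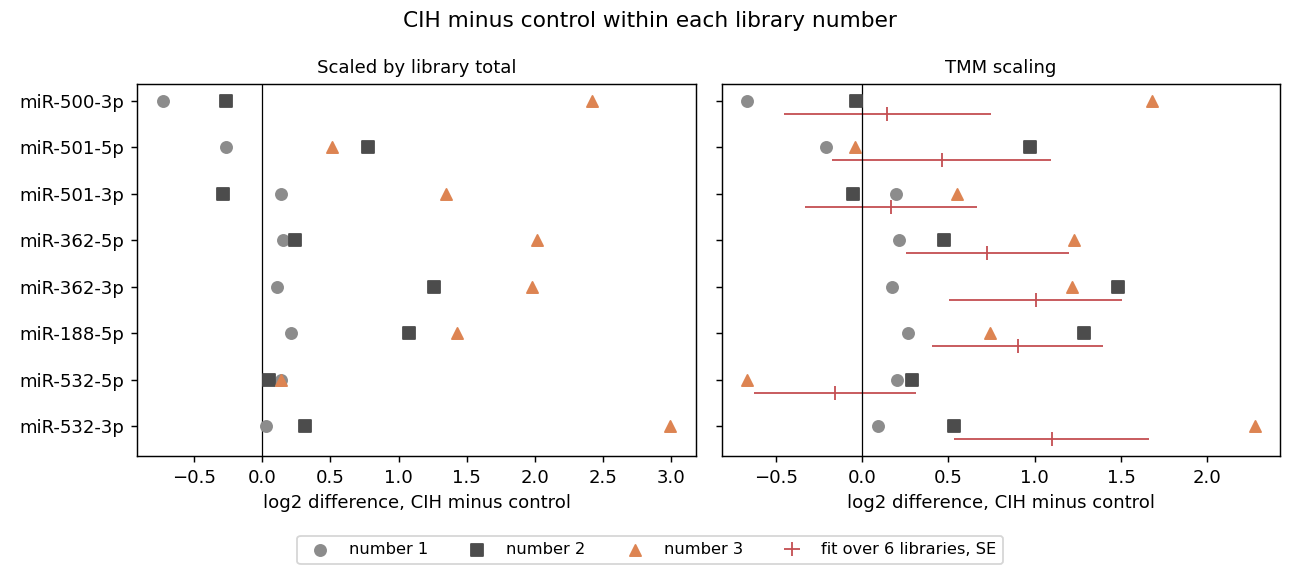
The log2 difference of CIH minus control within each library number (circle 1, square 2, triangle 3, each 1 library against 1, with 0.5 CPM added), by library total on the left and by TMM scaling on the right, where red bars show the edgeR difference over 6 libraries with its SE. The labels do not pair libraries of equal number. Number 1 lies near 0 for most members, and number 3 gives the highest values by library total for 7 of the 8 members and for 4 after TMM scaling.

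Whether the CIH difference in the pair numbered 3 differed from that in the libraries numbered 1 and 2 was tested as an interaction (edgeR), whose spread comes from the latter alone and which treats the single libraries numbered 3 as varying like them. It was called for 30.3% of 456 miRNAs and for 2 of 8 members. These were miR-500-3p, with a log2 interaction of 2.06 (SE 0.63, adjusted p = 0.0117), and miR-532-3p, with 2.06 (SE 0.64, adjusted p = 0.0141). Without control library 2 neither passed (adjusted p = 0.0732 and 0.0569). miR-532-5p had -0.91 (SE 0.36, adjusted p = 0.0519), and this was -0.97 (adjusted p = 0.0354) with relative log expression size factors and 0.04 with total counts alone. miR-362-5p, at 0.87 (adjusted p = 0.271), and miR-501-3p, at 0.49 (adjusted p = 0.402), passed with total counts alone (1.84, adjusted p = 0.0215, and 1.43, adjusted p = 0.0215), and miR-362-5p also without CIH library 2 (1.29, adjusted p = 0.0417). A share of 2 in 8 is near the share over all miRNAs.

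Between the sets, with group in the model, edgeR called 25.0% of 456 miRNAs and 0 members. The smallest p of a member was that of miR-501-3p, with a log2 difference of -0.95 for the libraries numbered 3 against the rest (SE 0.31, adjusted p = 0.0663). miR-532-5p stood at 0.69 (SE 0.31, adjusted p = 0.155). Without CIH library 3 these were -1.12 (adjusted p = 0.00157) and 1.20 (adjusted p = 1.07e-05), and miR-500-3p was then also lower, at -1.85 (adjusted p = 0.000589), values that then rest on control library 3 alone. Without control library 3 the values of miR-532-3p and miR-362-5p were 1.23 (adjusted p = 0.0114) and 0.88 (adjusted p = 0.0490), resting on CIH library 3 alone.

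As a whole the cluster took a small and similar part of each library. Its 8 members summed to 0.192%, 0.189% and 0.204% of the reads of the controls, in number order, and to 0.209%, 0.195% and 0.242% under CIH. The mean was 1950 ± 80.7 CPM for the controls and 2156 ± 243 CPM for CIH (SD, n = 3 per group). CIH library 2 lies below control library 3, so the groups overlap. On the log2 scale the difference was 0.14, and after TMM scaling -0.03. With each library left out it ran from 0.052, without CIH library 3, to 0.209, without CIH library 2. Since miR-532-5p made up most of this sum, the other 7 members were also summed alone. They came to 268, 282 and 76.0 CPM in control and 280, 280 and 260 CPM in CIH libraries 1, 2 and 3. Control library 3 lies far below the other 5 libraries, which stand within 260 to 282 CPM. The log2 difference of this sum was 0.61, and -0.0098 without control library 3.

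The shares of miR-532-5p, miR-501-3p and miR-532-3p in the reads of the cluster lay close together in the 4 libraries numbered 1 and 2 and apart from these in those numbered 3, while other members varied within the 4 as well. miR-532-5p took 86.0% and 85.1% of the cluster in controls 1 and 2 and 86.6% and 85.7% in their CIH counterparts. In control library 3 it took 96.3% (Wilson 95% interval 96.0% to 96.6%) and in CIH library 3 it took 89.3% (88.9% to 89.7%). Both intervals lie above those of the other 4 libraries, counting error only. miR-501-3p took 9.41%, 10.4%, 9.46% and 8.23% in controls 1 and 2 and CIH 1 and 2, and 2.22% and 4.80% in control and CIH library 3. The share of miR-532-3p was lowest in control library 3, at 0.130%, and highest in CIH library 3, at 1.02%, with 0.440% to 0.536% in the other 4. The next ranges are those within the 4 libraries numbered 1 and 2. The share of miR-362-3p ran from 0.881% (0.756% to 1.03%) in control library 2 to 2.08% (1.89% to 2.29%) in CIH library 2. That of miR-500-3p ran from 0.723% in CIH library 1 to 1.38% in control library 2. That of miR-188-5p ran from 0.163% in control library 2 to 0.363% in CIH library 2. The intervals at the ends of each range do not overlap. In control library 3 the shares were lower still, at 0.308% for miR-362-3p, 0.184% for miR-500-3p and 0.101% for miR-188-5p.

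**Figure D4:**
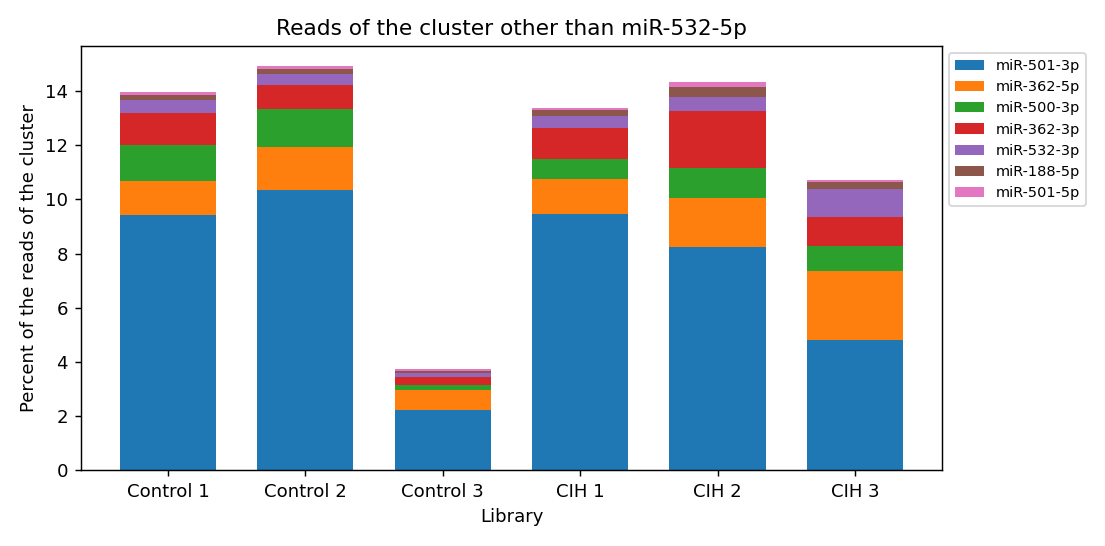
Percent of the reads of the cluster that each member other than miR-532-5p took in each library, stacked from 0. The part outside miR-532-5p is smallest in control library 3, where miR-501-3p took 2.22%, against 8.23% to 10.4% in the 4 libraries numbered 1 and 2.

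The 3 hairpins with both arms among the members used them differently. miR-532 gave almost only its 5p arm, miR-501 almost only its 3p arm, and miR-362 gave both. For miR-532 the 5p arm was 180-fold, 192-fold and 722-fold as frequent as the 3p arm in the controls, in number order, and 194-fold, 159-fold and 87.6-fold under CIH (0.5 counts added to each arm). The 4 libraries numbered 1 and 2 lie close together, and those numbered 3 lie on either side of them. In control library 3 the 3p arm rests on 22 reads and in CIH library 3 on 278. The log2 ratio was 8.19 ± 1.13 in control and 7.12 ± 0.60 in CIH (SD, n = 3 per group; exact two-sided permutation test, p = 0.3 and adjusted p = 0.9 over 3 ratios), a difference of -1.07 that was -0.08 within the libraries numbered 1 and 2, -3.04 in the pair numbered 3 and -0.42 without control library 3.

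For miR-501 the 3p arm was 84.0-fold, 92.9-fold and 50.1-fold as frequent as the 5p arm in the controls and 116-fold, 40.8-fold and 79.5-fold under CIH, in number order. The groups overlap throughout, and the log2 5p to 3p ratio differed by 0.02 (two-sided exact permutation p = 1, adjusted p = 1; n = 3 each). For miR-362 the 5p to 3p ratio was 1.08, 1.81 and 2.37 in control and 1.11, 0.882 and 2.37 in CIH libraries 1, 2 and 3. Here the libraries numbered 3 gave the same value to 3 digits, although CIH library 3 held more of both arms (62.2 against 15.01 CPM of the 5p arm and 26.3 against 6.30 CPM of the 3p arm). In control library 3 the 3p arm rests on 52 reads, with a Poisson 95% interval of 4.70 to 8.26 CPM. The match to 3 digits is thus closer than counting error can resolve. The log2 ratio differed by -0.33 between CIH and control (two-sided exact permutation p = 0.7, adjusted p = 1; n = 3 each), and ran from -0.75 without CIH library 3 to -0.04 without CIH library 2, with -0.08 without control library 3. In a design of 3 and 3 libraries this test cannot give a two-sided p below 0.1.

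**Figure D5:**
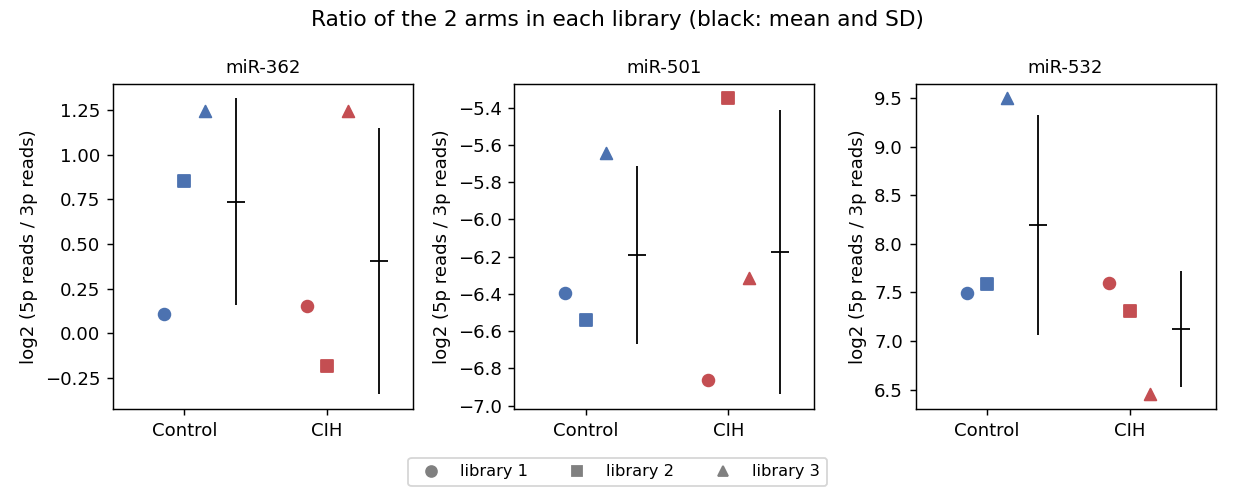
The log2 ratio of 5p to 3p reads of the 3 hairpins with both arms measured, in each control (blue) and CIH (red) library, with the mean and SD of each group in black (n = 3). For miR-532 the 4 libraries numbered 1 and 2 lie within 0.29 of each other and those numbered 3 lie 3.04 apart. For miR-362 those numbered 3 coincide, more closely than counting error can resolve.

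Over the 118 hairpins of all libraries with a mean of at least 10 reads for each arm, the log2 arm ratio differed between CIH and control library 3 by a median of 0.98 in either direction. 3 of the 118 differed by more than miR-532, and 117 by more than miR-362, whose difference was 0.0033. Within the libraries numbered 1 and 2 the median range was 0.85, and 110 of 118 hairpins ranged more widely than miR-532, at 0.29, 41 more widely than miR-362, at 1.03, and 17 more widely than miR-501, at 1.51. The miR-532 ratio thus had one of the smaller ranges in 4 libraries and one of the larger differences in the pair numbered 3. In controls 1 and 2 and CIH 1 and 2, miR-532-3p held 57, 81, 68 and 105 reads, with overlapping Poisson 95% intervals. A range of 0.29 cannot be told apart from counting error at such counts. Arm counts of miR-501-5p and miR-532-3p are low, and counting error adds to these ranges. In control library 3 the miR-362 arms hold 124 and 52 reads, so a difference of 0.0033 is smaller than counting error can resolve.

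Members differed from each other in how they varied. Among the 6 members with a mean of at least 10 CPM, the SD of the log2 ratio of 2 members over the 6 libraries ran from 0.41 to 1.15, with a median of 0.67 over 15 pairs, beside 1.04 over all pairs of 257 miRNAs of that level. Within the libraries numbered 1 and 2 the median was 0.42, beside 0.45 over all pairs. Among these 15 pairs the smallest SDs in the 4 libraries were those of miR-532-3p to miR-532-5p (0.13) and of miR-501-3p to miR-532-5p (0.14). Over 6 libraries these widened to 0.998 and 0.929. The first rests on 57 to 105 reads of miR-532-3p, and an SD of 0.13 cannot be told apart from counting error there. With the rarer members included, the ratio of miR-188-5p to miR-362-3p had a smaller SD still in the 4 libraries (0.063), and over 6 it was 0.374. In controls 1 and 2 and CIH 1 and 2, miR-188-5p held only 24, 30, 33 and 71 reads. Its Poisson 95% interval in control library 1 was 2.44 to 5.68 CPM. An SD of 0.063 is finer than such counts can resolve, so it does not show steadiness. miR-501-3p and miR-500-3p come from precursors next to each other, and their read ratio was 7.09, 7.50 and 12.1 in control and 13.1, 7.39 and 5.24 in CIH libraries 1, 2 and 3. How reads that match both names were assigned is not given in the sources used here, so values of close names may share reads. No other name held the same counts as a member in all 6 libraries, but sharing of a part of the reads would not show in that check.

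The miRNAs whose profile over the 6 libraries was most like the mean profile of the cluster were found by the root mean square difference of centred log2(CPM + 0.5). Of 251 miRNAs outside the locus with a mean of at least 10 CPM, the closest were miR-30d-3p (0.19), miR-24-2-5p (0.20), miR-3074-2-3p (0.20), miR-421-3p (0.25) and miR-29b-3p (0.25), with a median of 0.71 over all 251. miR-30d-3p, for example, stood at 40.2, 33.0 and 18.9 CPM in control and 37.8, 40.0 and 41.3 CPM in CIH libraries 1, 2 and 3. Like the mean profile of the cluster, miR-30d-3p is lowest in control library 3, which by itself sets most of this measure. The mean profile lies 1.15 below its own average there and 0.06 to 0.45 above it elsewhere. It weighs each member alike, whereas the summed level of the cluster, 2042 CPM in control library 3, is not lowest there. miR-24-2-5p and miR-3074-2-3p have overlapping precursors on chromosome 8 and nearly equal levels, so they are not separate profiles. The members themselves lay 0.26 (miR-188-5p) to 0.59 (miR-532-5p) from their own mean, and 90 of the 251 lay closer to it than miR-532-5p.

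Other X-linked miRNAs were compared with the cluster by their counts and medians. Of 93 names outside the locus whose every matched precursor is on chromosome X, 56 were tested over 6 libraries, with 29 higher and 27 lower in CIH, 0 called and a median of 0.10 (members 0.59, all tested 0.04). The lowest p-values there belonged to miR-222-3p (1.33, SE 0.39, adjusted p = 0.833) and miR-221-3p (1.49, SE 0.55) on the higher side and to miR-450b-5p (-1.11, SE 0.49) and miR-743a-5p (-1.15, SE 0.84) on the lower side. Within the libraries numbered 1 and 2, 57 were tested by edgeR, with 13 higher and 44 lower in CIH and a median of -0.47 (members 0.36, all tested -0.03). Of the 57, 3 were called higher and 10 lower, where 9.37% of all tested miRNAs were called. On the higher side the lowest p-values there belonged to miR-221-3p and miR-222-3p, which rose by 1.18 and 1.14 on the log2 scale. On the lower side they belonged to miR-322-5p and miR-450b-5p, which fell by 1.30 and 1.64. In the interaction 49 of 56 were above 0, with 24 called above and 1 below it and a median of 1.42 (members 0.41, all tested 0.06), beside 30.3% of all tested miRNAs called. Between the sets 21 were higher and 35 lower in the libraries numbered 3, with 5 and 13 called, beside 25.0% of all tested miRNAs, and a median of -0.16 (members -0.27, all tested -0.11). The median of the members thus stood above that of other X-linked miRNAs in both CIH comparisons and below it in the interaction and between the sets, differences that were not tested.

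Sums of several markers of other cell types lay apart in the libraries numbered 3, but not all did. The endothelial and muscle sums lay outside the range of the other libraries in control library 3 alone, at 33.8 and 111 CPM. The hepatocyte miRNA, at 4.12 and 3.28 CPM in control and CIH library 3, lay within that of the libraries numbered 1 and 2. The 3 fibroblast and stromal miRNAs, all found, summed to 15708.5, 12890 and 6077 CPM in control and 10752, 10647 and 65453 CPM in CIH libraries 1, 2 and 3. This sum was lowest in control library 3 and highest in CIH library 3. The 7 epithelial miRNAs summed to 76.3 to 409 CPM in control and 18.6 to 170 CPM in CIH, with miR-141-3p and miR-429-3p at 0 in some libraries. The 2 endothelial miRNAs ran from 33.8 to 137 and from 73.1 to 104 CPM, and the 3 of 4 muscle miRNAs found from 12.6 to 111 and from 11.6 to 38.7 CPM. The 3 erythroid miRNAs ran from 54.8 to 154 and from 21.0 to 135 CPM, the hepatocyte miRNA from 2.16 to 4.12 and from 2.09 to 5.59 CPM, and the 3 neuronal miRNAs from 210 to 516 and from 208 to 519 CPM, with miR-144-3p and miR-124-3p at 0 in some libraries. Of the 4 leukocyte miRNAs, miR-223-3p, miR-142a-3p and miR-142a-5p were at 0 in some libraries. The part of these cell types, or of the set, in the values of the cluster was not tested. In such bulk samples fewer cells of a type and less of a miRNA per cell cannot be told apart.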

How the data were processed

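Each of the 6 deposited tables holds whole-number read counts per mature miRNA of 1 library, without normalization, as the authors deposited them. The word FPKM heads 3 of them, yet their values are whole and sum to unequal totals, so they were read as counts. GRCm38, DESeq 1.8.3 and featureCounts 1.5.0-p3 appear in the submitters' processing notes without a role. Trimming, aligner, miRNA release and the handling of reads that match several names: not given in the sources used here. No column of another sample was present (0).

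The 929 known names in all 6 tables, which hold 99.97% or more of each library, were tested with edgeR 4.0.16 (quasi-likelihood F test, robust, TMM, filterByExpr defaults) in R 4.3.3, with Benjamini-Hochberg adjustment over all tested miRNAs at 0.05. SEs were derived from the F statistic. CPM is relative to the whole table's total. DESeq2 1.42.0 and limma-voom (limma 3.58.1) were alternatives, as were other scalings, no filter, the library number as a block, and leaving out each library. The fit with the set as a term was added after the data were examined. Arm ratios used 0.5 counts added and a two-sided exact permutation test. Python 3.11.15, pandas 2.3.3, numpy 2.4.6, scipy 1.17.1 and matplotlib 3.10.9 were used, and the fits were tested on simulated counts.

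Libraries of equal number correlated in their deviations from the group means at 0.31, 0.34 and 0.41 across 456 miRNAs, each above 0.1. They were taken as pairs where the number is a block. Yet control 1 and CIH 2 reached 0.40, and control 2 and CIH 1 reached 0.21. Deviations from a group mean cancel out, so where the library numbered 3 stands apart, the others of its group tend to deviate the opposite way. The values therefore cannot decide whether 1 belongs with 1 and 2 with 2, and the block is an assumption. Libraries of a group differed by more than counting noise (the lowest chi-square over its degrees of freedom was 135). Each was counted as 1 replicate, although this spread does not show that they come from separate animals or cultures. Precursor positions come from RefSeq's GRCm38.p6 table, which matched 907 of the 929 names. The members and lists were chosen with earlier results of these data known. The text names all members, the 5 outside miRNAs with the closest profile, and in each direction the 2 other X-linked miRNAs with the smallest p. Sequences and seeds were not analysed here.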

Additional observations from a re-analysis of the deposited data

Results flagged for a closer look

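For 2 members the CIH difference in the pair numbered 3 differed from that in the libraries numbered 1 and 2 by the edgeR interaction test. For miR-500-3p the interaction was 2.06 on the log2 scale (adjusted p = 0.0117), with -0.31 within the libraries numbered 1 and 2. For miR-532-3p it was also 2.06 (adjusted p = 0.0141), with 0.34 within the libraries numbered 1 and 2. The pair numbered 3 has 1 library per group, so the test compares these 2 libraries with the others rather than showing that the effect of CIH differs, and 30.3% of all tested miRNAs passed it. Groups of 3 libraries are too small for a test of single outlying libraries.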

How the results depend on the processing

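No member was called over the 6 libraries under any of the 13 alternatives, nor was any other miRNA. With the replicate block, edgeR called 0 miRNAs over 6 libraries and 48 within the libraries numbered 1 and 2, against 43 without it, and it changed no call of a member. The 43 ran from 9 to 97 with each library left out, and 1 member was called there, miR-362-3p without CIH library 1. The 114 miRNAs called between the sets were 60 with total counts alone and 2 to 253 with each library left out. The interaction could not be fitted without a library numbered 3. The summed level moved from 0.14 to -0.030 with TMM scaling and to 0.61 without miR-532-5p, which was -0.0098 when control library 3 was left out too, an alternative chosen after seeing the data. The miR-501 arm ratio, 0.018, was -0.0027 with 1 count added to each arm and -0.39 to 0.36 with each library left out; the cause was not tested.

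For the interaction, 4 member values passed under an alternative that did not pass before (miR-362-5p with total counts alone and without CIH library 2, miR-501-3p with total counts alone, miR-532-5p with relative log expression size factors) and 2 no longer passed (miR-500-3p and miR-532-3p without control library 2). The signs of 7, 4, 5 and 6 member values changed in the 4 comparisons, as follows. Over 6 libraries with each library left out, miR-500-3p ran from -0.24 to 0.52, miR-501-3p from -0.12 to 0.47, miR-501-5p from -0.28 to 0.76 and miR-532-5p from -0.32 to 0.34, and the last was 0.11 with total counts alone. Within the libraries numbered 1 and 2, miR-500-3p ran from -0.74 to 0.034, miR-501-3p from -0.065 to 0.26 (-0.070 with total counts alone) and miR-501-5p from -0.31 to 1.19. Between the sets, miR-188-5p ran from -0.13 to 0.30 (-0.25 with total counts alone, -0.068 without the filter), miR-500-3p from -1.85 to 0.16 and miR-532-3p from -0.77 to 1.23. For the interaction, miR-188-5p ran from -0.38 to 0.46 (0.87 with total counts alone, 0.065 without the filter) and miR-501-5p from -1.12 to 0.30 (0.29 with total counts alone), and miR-532-5p was 0.043 with total counts alone. Depth limits miR-501-5p most, with as few as 7 reads in a library.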

Other observations

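The other arms of 2 hairpins of the locus were near or below the floor. miR-188-3p held 1, 0 and 0 reads in control and 0, 2 and 2 reads in CIH libraries 1, 2 and 3. miR-500-5p held 2, 0 and 5 reads in control and 1, 2 and 10 reads in CIH libraries 1, 2 and 3, so its 2 highest counts, 0.605 and 0.888 CPM, are those of the libraries numbered 3.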
